A study of Mus musculus with 6 samples.

Results

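The histone genes encode the proteins around which DNA is wrapped. The members described here are the genes whose symbol marks them as a clustered histone gene or as a numbered linker histone gene: in the naming of the array annotation H1f, H2ac, H2bc, H3c or H4c followed by a digit. A probe set, the group of probes that gives 1 value, was used where it carried exactly 1 gene symbol. This gave 30 histone genes of 19938 genes measured that way: 8 for the linker histone H1, 4 for H2A, 9 for H2B, 3 for H3 and 6 for H4. A further 26 probe sets named several genes, at least 1 of them a histone member, and are given apart. The annotation held 66 such histone symbols in all, and 36 of them occurred only in those shared probe sets.

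The arrays came from 6 male mice of the C57BL6 strain at 4 weeks of age, 3 wild type and 3 with the mutation labelled MYB knockdown. How Myb was lowered is not given in the sources used here, and no other genetic change or treatment is named for either group. Total RNA was taken from bone marrow cells sorted as Kit+ CD11b+ Lin-Low and named K11bL, a myeloid progenitor gate, and 1 Affymetrix whole-transcript array was run per mouse. The single comparison asks which genes differ in these cells between knockdown and wild type.

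Chromatin is built from repeating units in which DNA winds around a core of H2A, H2B, H3 and H4, and H1 binds the DNA between units. Most histone genes lie in clusters and are transcribed in S phase, when new DNA must be packaged, and their mRNA ends in a stem-loop instead of a poly(A) tail. A smaller number are also made as polyadenylated mRNA outside S phase, and separate replacement variants are made throughout the cycle. The MYB protein is a transcription factor of blood progenitors that are still dividing.

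Histone promoters carry short sequence elements, some of them shared by several classes, and 6 promoters that hold them are shown first. They are from the RefSeq annotation of GRCm38.p6, which held a promoter for 26 of the 30 members. Each line is the stretch of 150 bases just before the annotated start, 5′ to 3′ on the gene's strand. Capitals mark the H1 box (AAACACA), the CCAAT box (CCAAT, or ATTGG on the other strand), the TATA box (TATAAA, or TTTATA on the other strand) and the octamer (ATTTGCAT). H1f2, H1f3 and H1f5 are shown as linker genes that all hold the H1 box and a CCAAT box. Among them H1f2 alone holds no TATA box of these letters. H2bc8 and H2bc18 are 2 H2B promoters that hold the octamer, and H4c4 is the brightest member. No promoter is printed for H2bc4 and H2bc21, described below. The windows are chr13:23738657-23738806 (plus strand) for H1f2, chr13:23554882-23555031 (plus) for H1f3, chr13:21780626-21780775 (minus) for H1f5, chr13:23571250-23571399 (plus) for H2bc8, chr3:96269550-96269699 (plus) for H2bc18 and chr13:23581418-23581567 (plus) for H4c4.
H1f2: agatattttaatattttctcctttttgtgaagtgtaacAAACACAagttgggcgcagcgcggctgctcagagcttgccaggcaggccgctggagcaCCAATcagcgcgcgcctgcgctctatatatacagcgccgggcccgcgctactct
H1f3: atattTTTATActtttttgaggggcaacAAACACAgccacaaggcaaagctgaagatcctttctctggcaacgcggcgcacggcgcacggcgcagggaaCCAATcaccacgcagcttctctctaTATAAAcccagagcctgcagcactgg
H1f5: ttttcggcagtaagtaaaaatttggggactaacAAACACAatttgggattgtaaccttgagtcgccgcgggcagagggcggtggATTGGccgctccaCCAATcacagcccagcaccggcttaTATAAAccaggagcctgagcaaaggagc
H2bc8: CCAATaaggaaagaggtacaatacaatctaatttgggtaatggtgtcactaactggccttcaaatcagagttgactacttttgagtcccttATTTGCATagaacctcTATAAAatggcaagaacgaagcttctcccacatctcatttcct
H2bc18: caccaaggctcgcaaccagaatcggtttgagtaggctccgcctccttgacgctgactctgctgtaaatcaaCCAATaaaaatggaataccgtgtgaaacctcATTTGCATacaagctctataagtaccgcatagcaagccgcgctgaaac
H4c4: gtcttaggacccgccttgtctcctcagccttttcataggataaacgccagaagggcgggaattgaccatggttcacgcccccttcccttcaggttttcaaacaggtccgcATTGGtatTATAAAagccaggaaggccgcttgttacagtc

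The search covered both strands of each promoter, from 250 bases before the start to 50 after it. The octamer, the binding sequence of OCT1, stood in 7 of 15 H2B promoters and in 6 of 17 H2A promoters, against 1.74% of all 32851 promoters, and in 0 of 10 H1, 0 of 10 H3 and 0 of 11 H4 promoters. The promoters of an H2A gene and its H2B neighbour can overlap, so these counts share sequence. The CCAAT box was in 17 of 17 H2A, 15 of 15 H2B, 10 of 10 H3 and 7 of 10 H1 promoters. It was in 3 of 11 H4 promoters, against 37.4% of all promoters. The letters of the TATA box were in 8 of 11 H4 and 11 of 17 H2A promoters, against 13.6% of all. They were also in 7 of 15 H2B, 4 of 10 H1 and 4 of 10 H3 promoters. Among the measured H4 genes they began 32 bases before the start in H4c4, 137 in H4c9 and 250 in H4c6. The motif counts take the letters at any place searched, so they do not show a box at a set distance from the start. The H1 box stood in 5 of 10 H1 promoters against 7.18% of all. It was also in 2 of 17 H2A and 2 of 15 H2B promoters, and in 0 of 10 H3 and 0 of 11 H4 promoters. The box began 112 bases before the start in H1f2, 122 in H1f3, 117 in H1f5 and 114 in H1f6, the testis linker histone. The core of the MYB motif (AACNG) was in 80.3% of all promoters, and was found in 8 of 10 H1, 15 of 17 H2A, 15 of 15 H2B, 6 of 10 H3 and 9 of 11 H4 promoters.

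The 6 arrays had medians between 5.87 and 5.99, and knockdown mouse 3 stood apart from the rest. Its array correlated at 0.977 and 0.984 with the other knockdown arrays, while those 2 correlated at 0.994 and the wild type arrays at 0.993 to 0.995. Myb itself read 11.47, 11.46 and 11.46 in wild type and 11.26, 11.08 and 11.14 in knockdown, and fell by 0.30 ± 0.06 (limma, adjusted p = 0.0196). The Myb call was lost when 1 wild type mouse or knockdown mouse 2 was left out (adjusted p from 0.0777 to 0.0963), after median centring (0.074) and without the trend of eBayes (0.0662). All values here are log2 of array intensity, and all differences are knockdown minus wild type, with the standard error (SE) of the limma fit over all genes. An adjusted p under 0.05, by the Benjamini-Hochberg method over 13956 genes, counts as a change. A different mix of cells within the gate and a different amount of histone mRNA per cell cannot be told apart in such bulk RNA.

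None of the 27 members tested passed the test in either direction. Of the 30 members 27 were bright enough to be tested, and limma called 0 of them, where 11.6% of all genes tested were called (6.12% higher, 5.48% lower). At an unadjusted p under 0.05 there were 3 of the 27, or 11.1%, against 25.6% of all genes. The median difference over the 27 was 0.06, beside 0.02 over all genes tested, and the differences ran from -0.58 to 0.52. Of the 27 genes 17 were higher and 10 lower, or 63.0% higher, beside 53.6% of all genes tested. After median centring, which moved the split of called genes from 854 higher and 765 lower to 1433 higher and 593 lower, 23 members were higher and 4 lower, again with 0 called. That scaling moved the median of all genes from 0.02 to 0.09 and the share of all genes that were higher to 68.4%.

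The intervals show how large a difference the 3 mice per group left possible. For 19 of the 27 genes the 95% interval of the difference lay within a 1.5-fold change either way, and for 26 within a 2-fold change, beside 73.9% and 93.7% of all genes tested. The exception at 2-fold was H3c15, an H3 gene, whose interval ran from -0.78 to 1.05. The groups did not overlap for 2 of the 27, H1f2 below wild type and H2bc21 above it. Over all genes tested 34.3% had groups that did not overlap, 19.9% with knockdown higher and 14.4% with knockdown lower.

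**Figure D1:**
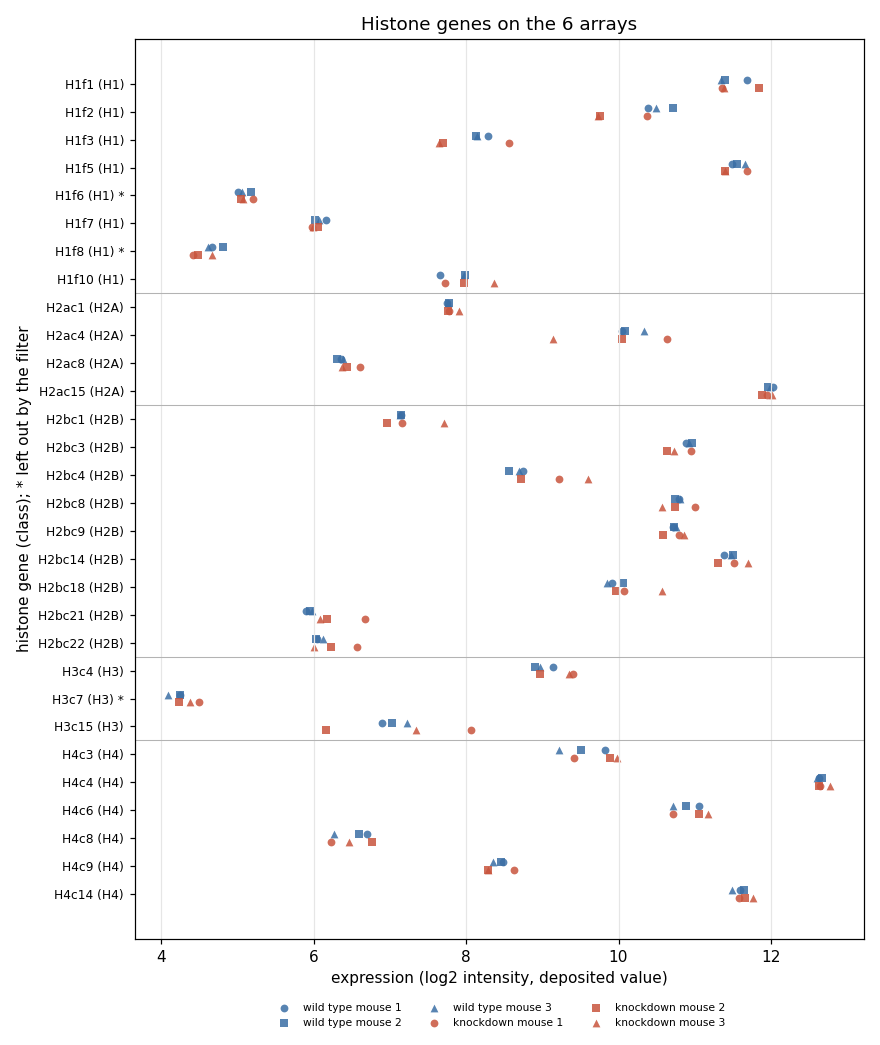
Deposited log2 intensity (x axis) of the 30 histone genes with a probe set of their own (y axis, ordered by class) on each array. Blue marks are wild type mice, red marks knockdown mice, and the marker shape gives the mouse number. The marks of both colours lie over each other in most genes, H1f2 has all 3 knockdown mice below the wild type mice, and H3c15 and H2ac4 spread widest among the knockdown mice.

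The linker histones gave the largest difference of any member. H1f2, which encodes H1.2, a widely made somatic linker histone, read 10.39, 10.72 and 10.49 in wild type mice 1, 2 and 3, and 10.37, 9.76 and 9.73 in knockdown mice 1, 2 and 3. Knockdown mice 2 and 3 were low, while knockdown mouse 1 sat next to the lowest wild type mouse. The means were 10.53 ± 0.17 (SD, n = 3) and 9.95 ± 0.36 (SD, n = 3), a difference of -0.58 ± 0.17 (SE), with an interval from -0.98 to -0.18. Its adjusted p = 0.0685 missed the threshold. It passed in limma after quantile normalization (adjusted p = 0.0483), with array weights (adjusted p = 0.00365) and without knockdown mouse 1 (adjusted p = 0.0048, difference -0.79). The fit with array weights, whose estimation gave convergence warnings, called 3912 of 13956 genes, against 1619 without weights. Over all 15 alternatives the adjusted p of H1f2 ran from 0.00365 to 0.252, with a difference below 0 each time.

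H1f3, which encodes H1.3, showed the same split among the knockdown mice. It read 8.29, 8.13 and 8.14 in wild type and 8.56, 7.70 and 7.65 in knockdown, so knockdown mouse 1 was the highest of all 6 and the other 2 were the lowest. The difference was -0.22 ± 0.23 (adjusted p = 0.635), and without knockdown mouse 1 it was -0.51 and was called (adjusted p = 0.0293). H1f5, which encodes H1.5, read 11.49, 11.56 and 11.66 against 11.69, 11.40 and 11.40, again with knockdown mouse 1 highest, but the difference was only -0.07 ± 0.09 (adjusted p = 0.697). The promoters of these 3 genes, shown above, all hold the H1 box and a CCAAT box, and TATAAA stands in those of H1f3 and H1f5 only. The H1f1 promoter holds a CCAAT box and TATAAA, and no H1 box was found in it. Whether these elements bear on the values was not tested. H1f1, which encodes H1.1, went another way, with 11.68, 11.40 and 11.34 against 11.36, 11.84 and 11.38 and a difference of 0.06 ± 0.14. Knockdown mouse 2 held the highest H1f1 value and the groups overlapped.

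The other linker genes are variants with their own settings. H1f10, the replacement linker histone H1X, read 7.66, 7.99 and 7.97 against 7.72, 7.98 and 8.37, a difference of 0.15 ± 0.18, with knockdown mouse 3 highest. H1f7, a linker histone of spermatids, lay near 6 on all arrays with a difference of -0.07 ± 0.09. H1f6 of the testis and H1f8 of the oocyte were below the filter on dim genes and were read as values only, with group means of 5.08 and 5.11 for H1f6 and 4.70 and 4.52 for H1f8 in wild type and knockdown. Over the 6 H1 genes tested, 2 were higher and 4 lower, with a median difference of -0.07.

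**Figure D2:**
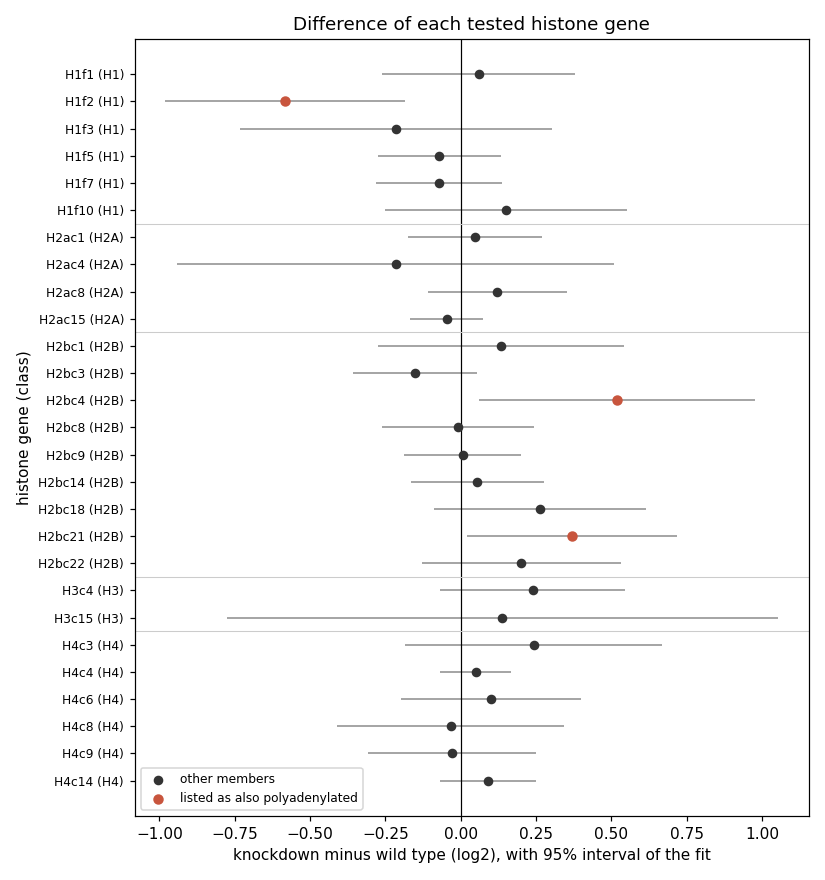
Difference between knockdown and wild type (x axis, log2) for the 27 histone genes tested (y axis), with the 95% interval of the limma fit. Red points are members of the list of histone genes also made as polyadenylated mRNA, a list chosen with earlier results of these data known. H1f2 at -0.58, H2bc4 at 0.52 and H2bc21 at 0.37 are the 3 genes whose interval does not reach 0.

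The H2B genes held the largest differences above 0. H2bc4, formerly Hist1h2bc, read 8.75, 8.56 and 8.69 in wild type and 9.22, 8.72 and 9.61 in knockdown. Knockdown mice 1 and 3 were above all wild type mice and knockdown mouse 2 was among them. The means were 8.67 ± 0.09 (SD, n = 3) and 9.18 ± 0.44 (SD, n = 3), a difference of 0.52 ± 0.20 (adjusted p = 0.144). Without knockdown mouse 2 it was 0.75 and was called (adjusted p = 0.0251).

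H2bc21, formerly Hist2h2be, was dim, with 5.9, 5.95 and 5.97 in wild type and 6.67, 6.18 and 6.08 in knockdown. All 3 knockdown mice were above the wild type mice, mouse 1 by the widest margin. Its difference was 0.37 ± 0.15 (adjusted p = 0.173). H2bc21 passed in limma with array weights (adjusted p = 0.0276) and without knockdown mouse 3 (adjusted p = 0.028, difference 0.48). Both of these fits called far more genes of the 13956 tested, 3912 and 3794, against 1619 with all arrays and no weights. The estimation of the weights gave convergence warnings. H2bc18, from the small cluster on chromosome 3, read 9.91, 10.06 and 9.85 against 10.07, 9.97 and 10.57, a difference of 0.26 ± 0.15 (adjusted p = 0.344) that lay mostly in knockdown mouse 3.

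The remaining H2B genes stayed closer to 0. H2bc14, the brightest of the class, differed by 0.06 ± 0.10, H2bc9 by 0.01 ± 0.08 and H2bc8 by -0.01 ± 0.11. H2bc3 was the lowest of the class relative to wild type, at 10.88, 10.96 and 10.92 against 10.95, 10.63 and 10.73, a difference of -0.15 ± 0.09 (adjusted p = 0.354). H2bc22 differed by 0.20 ± 0.14, with knockdown mouse 1 at 6.57 and the other 5 mice between 6.0 and 6.23. H2bc1, the testis H2B, differed by 0.13 ± 0.18, and its wild type values of 7.14, 7.15 and 7.13 were far closer together than its knockdown values of 7.16, 6.97 and 7.71. Over the 9 H2B genes 7 were higher and 2 lower, with a median difference of 0.13.

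Few H2A and H3 genes had a probe set of their own. H2ac15, bright on all arrays, read 12.03, 11.96 and 11.99 against 11.95, 11.88 and 12.01, a difference of -0.05 ± 0.05. H2ac4 spread widely, with 10.05, 10.09 and 10.34 in wild type and 10.64, 10.05 and 9.14 in knockdown, so the knockdown mice held both the highest and the lowest value and the difference of -0.22 ± 0.32 had no direction beyond that spread. H2ac8 differed by 0.12 ± 0.10, and H2ac1, the testis H2A that neighbours H2bc1, by 0.05 ± 0.10. H3c4 read 9.13, 8.91 and 8.96 against 9.41, 8.97 and 9.35, a difference of 0.24 ± 0.13 (adjusted p = 0.321). H3c15 read 6.89, 7.03 and 7.22 against 8.06, 6.16 and 7.34, with knockdown mice 1 and 2 nearly 2 log2 units apart on either side of wild type. H3c7 was dim, with group means of 4.2 and 4.37, and was not tested.

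The 6 H4 genes had differences between -0.03 and 0.24. H4c4, brighter than 99.98% of genes, read 12.63, 12.67 and 12.61 in wild type and 12.64, 12.63 and 12.78 in knockdown, a difference of 0.05 ± 0.05 with an interval from -0.07 to 0.17. H4c14 differed by 0.09 ± 0.07, H4c6 by 0.10 ± 0.13, H4c9 by -0.03 ± 0.12 and H4c8 by -0.03 ± 0.17. H4c3 had the largest value, 0.24 ± 0.19 (adjusted p = 0.489), from 9.83, 9.5 and 9.22 against 9.42, 9.89 and 9.97. The highest value of any probe set was 13.26, and whether the brightness of H4c4 limited its difference was not tested.

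Within the groups, several H4 genes moved from mouse to mouse together. In H4c3, H4c6, H4c8 and H4c14, wild type mouse 3 was the lowest wild type mouse and knockdown mouse 1 the lowest knockdown mouse. The deviations of H4c3 and H4c6 from their group means correlated at 0.984 over the 6 arrays, the highest of any H4 pair. The mean over all pairs of the 6 H4 genes was 0.29. It was 0.075 over all 27 histone genes, 0.36 within the S phase list given below and 0.003 over all pairs of genes tested. Between the H4 genes and the S phase list it was -0.238. H4c9 ran against the rest, down to -0.572 with H4c6. The mean pairwise correlation was 0.28 within the H2B genes, -0.125 within the H1 genes, -0.079 within the H2A genes and 0.801 for the 2 H3 genes. These correlations are descriptions over 6 arrays that share their scaling. Genes of the same core class, H2A, H2B, H3 or H4, also share much coding sequence. Whether 1 probe set reads the mRNA of another gene was not tested, here or for the values of single genes above.

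**Figure D3:**
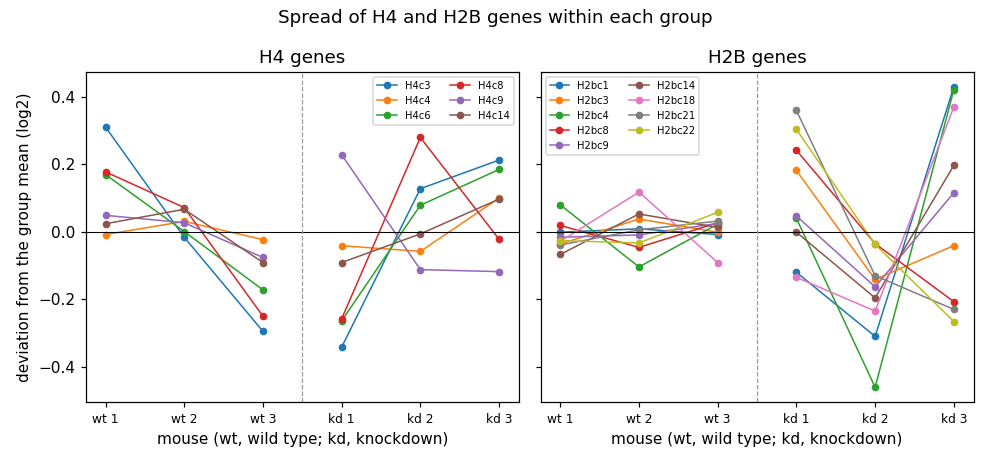
Deviation of each mouse from its group mean (y axis, log2) for the 6 H4 genes and the 9 H2B genes tested. Thin lines only join the values of 1 gene within a group, since mice have no order. H4c3 and H4c6 go together across all 6 mice, while the H2B genes are close in wild type and fan out in the knockdown mice.

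The knockdown mice differed more among themselves than the wild type mice did. The range of the 3 knockdown values was wider than that of the 3 wild type values in 25 of the 27 histone genes, and in 79.9% of all genes tested. The median SD of the histone genes was 0.24 in knockdown and 0.08 in wild type, against 0.17 and 0.08 over all genes. Relative to the wild type mean, the median of the 27 genes was 0.05 in knockdown mouse 1, -0.02 in mouse 2 and 0.12 in mouse 3. The H2B genes had medians of 0.13, -0.05 and 0.14 in these mice, and the H1 genes -0.11, -0.09 and -0.13.

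Genes of red cell precursors also differed among the knockdown mice. The 9 measured of 14 erythroid markers had medians of 0.23, -0.16 and 0.50 relative to wild type in knockdown mice 1, 2 and 3. Their summed level, as log2, ran from 12.43 to 12.78 in wild type and from 12.26 to 13.12 in knockdown, and none of the 9 lay under the lower quartile of every array. Their part in the spread of the histone genes was not tested. Among these markers 1, Car2, a carbonic anhydrase, rose, by 0.38 ± 0.10 (adjusted p = 0.0479), and 9 of the 15 alternatives did not call it (adjusted p up to 0.184).

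Some histone genes are known to be made as polyadenylated mRNA as well as with the stem-loop. Of the 6 listed, H1f2, H2bc4 and H2bc21 are members with a probe set of their own, and they were the 3 members with an unadjusted p under 0.05 in limma (0.0095, 0.0307 and 0.041), where 25.6% of all genes were. The list was chosen with earlier results of these data known, so the match is a description and not a test. The directions of these 3 genes differed, with H1f2 lower and both H2B genes higher. Among the other 24 members tested 0 had an unadjusted p under 0.05 in limma, the smallest adjusted p was 0.321, and the differences ran from -0.22 to 0.26. The fourth listed gene with a value is H2aw, formerly Hist3h2a, whose current symbol lies outside the naming used to choose the members. It read 11.27, 11.31 and 11.32 against 11.70, 11.46 and 11.61, with groups that did not overlap, and rose by 0.29 ± 0.07 (adjusted p = 0.0362). In limma 5 of its 15 alternatives did not call it: each wild type mouse left out (adjusted p of 0.147, 0.128 and 0.114), knockdown mouse 1 left out (0.0796) and no trend in eBayes (0.0948).

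H2aw is 1 of 4 genes that carry an older Hist3h or Hist4h symbol under another current name. The other 3 were H2bu1-ps and H2bu2, H2B relatives formerly named Hist3h2bb and Hist3h2ba, and H4f16, an H4 gene formerly named Hist4h4. All were higher in the knockdown mean: H2bu1-ps by 0.33 ± 0.11 (adjusted p = 0.0898), from 7.54, 7.5 and 7.42 to 7.77, 7.72 and 7.96, H2bu2 by 0.18 ± 0.10 and H4f16 by 0.23 ± 0.13. Of these 3 only H2bu1-ps had groups that did not overlap. With the 4 genes added, 1 of 31 tested histone genes rose and 0 fell, and the median difference was 0.09. An unadjusted p under 0.05 was found for 5 of the 31, and over all genes 11.6% were called and 25.6% had such a p.

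Most of the probe sets with several symbols read many genes of a family at once, since core histone coding sequences are nearly alike. The 10 such probe sets of H3 genes lay between 12.53 and 12.89 on all arrays, and their differences ran from -0.06 to -0.03. The 6 of H4 genes differed by -0.01 to 0.09, the 7 of H2B genes by -0.05 to 0.05 and the 2 of H2A genes by -0.04 and -0.02. The 2 H2A sets also carry an H3 symbol. The H4 set at 0.09 names only 2 genes, with means of 7.54 in wild type and 7.63 in knockdown. The last of the 26, which names an H1 and an H2B gene, differed by -0.12 ± 0.09. Limma called 0 of the 26, and 0 had an unadjusted p under 0.05, against 11.1% called and 25.3% at an unadjusted p under 0.05 of all probe sets tested with at least 1 symbol. The smallest adjusted p was 0.342. Apart from the H4 set at 0.09 and the set of an H1 and an H2B gene, all values lay between 11.67 and 12.89. The highest value of any probe set was 13.26, and whether such brightness limited the differences was not tested. Of the 26, 24 had distinct values, since pairs of probe sets held identical numbers on all arrays, and 17 named histone members alone. With array weights, whose estimation gave convergence warnings, limma called 12 of these 17 (11 lower, 1 higher) and 55.0% of all probe sets tested.

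**Figure D4:**
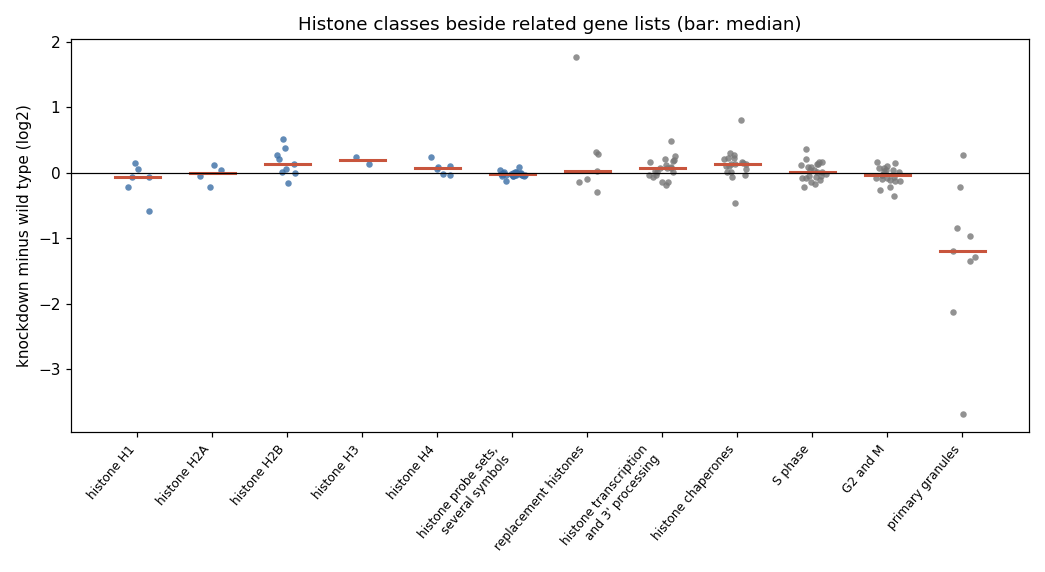
Difference between knockdown and wild type (y axis, log2) of each tested gene of the 5 histone classes, of the 26 histone probe sets with several symbols (blue) and of related gene lists (grey), with the median of each as a red bar. The histone medians lie between -0.07 and 0.19, Macroh2a2 is the single replacement histone far above 0, and the primary granule genes have a median of -1.20.

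Replacement histones can also be made outside S phase, and some are exchanged into existing chromatin. Of 7 tested, 1 rose and 0 fell, with a median of 0.02, and 2 rose and 1 fell without knockdown mouse 3, a fit that called 27.2% of all genes. Macroh2a2, a macroH2A that carries a large extra domain and is linked to repressed chromatin, rose by 1.77 ± 0.12, or 3.41-fold (adjusted p = 7.49e-05), from 6.14, 6.21 and 6.38 to 8.04, 7.87 and 8.12. The groups stood far apart and the 3 knockdown mice lay close together. Limma called it under all 15 alternatives, with differences from 1.62 to 1.85. Its relative Macroh2a1 was not called and had a difference of -0.14 ± 0.12. H2ax, the variant phosphorylated at DNA breaks, differed by 0.32 ± 0.15 (adjusted p = 0.213), H2aj by 0.29 ± 0.10 (adjusted p = 0.0941), H2az2 by -0.29 ± 0.10 (adjusted p = 0.109), and H2az1 by 0.02 ± 0.06. Cenpa, the H3 variant of centromeres, differed by -0.10 ± 0.13.

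Histone genes share a dedicated machinery for making and trimming their mRNA. Of 20 tested genes of histone transcription and 3′ end processing, 1 rose and 0 fell, with a median of 0.07. It was Ccne1, cyclin E1, which with Cdk2 activates NPAT at the histone clusters, by 0.48 ± 0.10 (adjusted p = 0.0166), and the call was lost without any 1 wild type mouse (adjusted p from 0.0682 to 0.0966). Without knockdown mouse 3, 5 of these 20 genes rose and 27.2% of all genes were called, 17.2% higher. Npat itself differed by -0.04 ± 0.10, Slbp, which binds the stem-loop, by 0.07 ± 0.11, and Lsm10 and Lsm11 of the U7 particle by 0.25 ± 0.11 (adjusted p = 0.182) and -0.06 ± 0.09.

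Histone chaperones escort new histones to DNA. Of 19 tested, 1 rose and 0 fell, with a median of 0.14 beside 0.02 over all genes, and 16 were higher, where 53.6% of all genes were. Ipo4, an importin that carries H3 and H4 into the nucleus, rose by 0.81 ± 0.14 (adjusted p = 0.00886), from 8.04, 8.30 and 8.25 to 8.81, 8.93 and 9.28, and missed the threshold without wild type mouse 1 (adjusted p = 0.0555). Chaf1b, a subunit of the assembly factor CAF-1, differed by 0.30 ± 0.09 (adjusted p = 0.0672) and Chaf1a, its partner, by -0.04 ± 0.10. Asf1b, which hands H3 and H4 to CAF-1, differed by 0.01 ± 0.08. Without knockdown mouse 3, 6 chaperone genes rose and 1 fell (27.2% of all genes were called), and limma called 0 when wild type mouse 1 was left out. With all arrays, 6 of the 19 had an unadjusted p under 0.05, or 31.6% beside 25.6% of all genes.

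The cell cycle lists are set beside the histone genes because most histone mRNA is made in S phase. Of 23 S phase genes 0 were called by limma and 1, Gins2, had an unadjusted p under 0.05, at a difference of 0.36 ± 0.12 (adjusted p = 0.0873). Their median was 0.01, and relative to wild type it was 0.12, 0.10 and -0.12 in knockdown mice 1, 2 and 3. Without knockdown mouse 3, 3 of the 23 rose, where 27.2% of all genes were called. Limma called 0 of 21 G2 and M phase genes, and 1, Cenpe, had an unadjusted p under 0.05 (difference -0.36 ± 0.16, adjusted p = 0.193), with a median of -0.04. Without knockdown mouse 3, 1 rose.

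Markers of the gate, of later stages and of other cells are set beside these values. Of 9 primary granule genes 8 fell, with a median of -1.20. The differences were -3.69 ± 0.08 in Elane (neutrophil elastase), -1.20 ± 0.07 in Mpo (myeloperoxidase) and -1.35 ± 0.08 in Prtn3 (proteinase 3). Their summed level ran from 14.91 to 15.08 in wild type and from 13.92 to 13.95 in knockdown. Of 12 genes of later neutrophils 5 fell and 1 rose, with differences of -3.36 ± 0.36 in Camp, -1.45 ± 0.15 in S100a8 and 3.26 ± 0.36 in Mmp8. Of 9 tested B lymphoid genes 4 fell, with differences of -2.06 ± 0.33 in Igll1, -1.40 ± 0.21 in Dntt and -0.51 ± 0.14 in Rag1 (adjusted p = 0.0473, not called under 9 of 14 alternatives). The B lymphoid count was 2 when wild type mouse 2, wild type mouse 3 or knockdown mouse 2 was left out. Their summed levels ran from 14.62 to 14.82 and from 10.62 to 11.03 in wild type, and from 13.26 to 13.99 and from 10.28 to 10.32 in knockdown, for late neutrophil and B lymphoid genes. The genes of the gate were bright in both groups: Kit had a difference of -0.27 ± 0.08 (adjusted p = 0.06; called under 4 of 15 alternatives, down to 0.00423), and Itgam, which encodes CD11b, one of -0.39 ± 0.17 (adjusted p = 0.202; called under 2 of 15, down to 0.0239). The part of these shifts in the values of the histone genes was not tested.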

How the data were processed

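The authors deposited log2 values, 1 for each probe set on each array. Affymetrix Expression Console and limma are named in the submitters' processing notes, with versions, roles and normalization not given in the sources used here. Probe sets with exactly 1 symbol in the platform annotation (21789 of 35556) were used, the one of highest mean per gene, and genes in the lowest 30% by mean over all 6 arrays were left out. Knockdown was compared with wild type under R 4.3.3 with limma 3.58.1 (lmFit, then trended eBayes, no covariates); the script was tested on simulated data. Intervals are 95% intervals of that fit. Labels name separate mice. Arrays carry no read depth, and their number limits the precision. The annotation of GRCm38.p6 gave older symbols and promoters. The H1 box was searched after the other motifs. Members and lists were chosen with earlier results of these data known. Named were Myb, in each histone class the brightest member and the 2 largest differences each way, the polyadenylated and germ line histones, up to 3 called genes of each other list (1 of smallest p where none was called), Kit and Itgam; other genes were named after their values were seen. List genes without a probe set of their own are not analysed here.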

Additional observations from a re-analysis of the deposited data

How the results depend on the processing

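The count of histone genes called was 0 under most settings: it was 1 after quantile normalization, 2 with array weights, 1 at an adjusted p of 0.1 (H1f2 each time, with H2bc21 as the second under array weights), 1 with the genes of older symbol counted (chosen after seeing the data), and 0 to 2 with each array left out in turn. The H1 count was 1 in the first 3 of these settings and 0 to 2 with an array left out; the H2B count was 1 with array weights and 0 to 1 with an array left out. The median over the histone genes was 0.13 after median centring. With array weights, whose estimation gave convergence warnings, limma called 3912 genes, 12 histone probe sets of several symbols, 3 replacement histones, 4 transcription and processing genes, 4 chaperones, 5 S phase, 1 G2 and M, 3 erythroid and 10 late neutrophil genes. That fit called 55.0% of all probe sets tested. A 1.5-fold minimum left 915 genes (6.56% of those tested), 0 transcription and processing genes and 0 erythroid genes. With median centring, and also at an adjusted p of 0.1, 2 replacement histones, 2 chaperones and 1 S phase gene were called. With probe sets averaged per gene, 2 transcription and processing genes were called. Median centring called 14.5% of all genes, an adjusted p of 0.1 17.3% and averaged probe sets 11.5%. The erythroid count was 0 with the block, quantile normalization, no filter, no trend and a robust fit. The B lymphoid count was 2 with no filter, a filter at 50% and no trend. The block called 10.6% of all genes, no filter 7.39%, a filter at 50% 15.4%, no trend 11.3% and a robust fit 11.3%. Beside these, leaving out each array gave 663 to 3794 genes (663, 686 and 747 without wild type mouse 1, 2 and 3, 911 without knockdown mouse 2 and 3794 without knockdown mouse 3), 0 to 5 transcription and processing genes, 0 to 7 chaperones, 1 to 3 replacement histones, 0 to 3 S phase, 0 to 1 G2 and M, 0 to 1 erythroid and 2 to 6 B lymphoid genes. A fit without an array has fewer mice, and apart from that the cause was not tested. The mouse numbers did not pair the samples (deviations of equal numbers correlated at 0.293, -0.188 and -0.083, and 1 of 3 wild type mice correlated best with its own number); with the number as a replicate block 1472 genes and 0 histone genes were called. Of the 1619 genes called, 0 changed direction in the alternatives that tested them (1402 were tested with the filter at 50% and 1615 compared with probe sets averaged). Whether the range of the arrays limits the brightest probe sets was not tested.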
